A study of Mus musculus with 12 samples.

Results

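Resident macrophages (RM) of the mouse large intestine were compared between Runx3Δ mice, in which *Runx3* is deleted in cells that carry CD11c-Cre, and their wild-type (WT) littermates. These 7 arrays, 4 of Runx3Δ and 3 of WT RM, are part of a series of 12 that also holds 5 arrays of CD11b+ dendritic cells (DC), 3 Runx3Δ and 2 WT. The RM samples were chosen by their labels alone. All mice were 6 to 8 weeks old, both sexes were pooled, and each array held RNA of cells sorted from the cecum of 3 to 4 mice. The sort took cells with CD45, CD11c, MHCII, CD11b and F4/80 on their surface and without Ly6c, and the DC differed by the absence of F4/80. Runx3Δ mice are Runx3 fl/fl with a CD11c-Cre transgene, which is active in dendritic cells as well as in macrophages, so the cells around the sorted RM could also lack Runx3. The labels give the RM genotypes as Runx3 -/- and Runx3 +/+, and do not say whether the WT littermates carried the Cre or the floxed alleles. The samples were pools of mice grouped by litter, and p-values measure the spread between these pools.

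RM are phagocytes of the lamina propria that arise from blood monocytes. They take up bacteria and dying cells and, under healthy conditions, answer them with IL-10 rather than with inflammatory cytokines. Runx3 is a transcription factor of the RUNX family, which binds DNA together with Cbfb and can raise or lower transcription, and it also takes part in the responses to TGF-β. The comparison asks which genes of RM change when Runx3 is lost.

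Of 35556 rows of log2 intensities, 21789 carry 1 gene symbol, and these stand for 19938 genes, each represented by its brightest row. The words rose and fell are kept for genes with a limma p under 0.05 after Benjamini-Hochberg adjustment across the whole table. Genes called higher or lower met the study's own thresholds, at least 1.5-fold at an unadjusted p no greater than 0.05. Samples are said to lie apart where no Runx3Δ value fell within the range of the WT values or on its other side. Every log2 fold change below is Runx3Δ minus WT, and its error is a standard error (SE).

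The sorted cells carried the RNA of macrophages in both genotypes. *Adgre1*, which encodes F4/80, lay at log2 levels of 11.72, 11.92 and 11.93 in WT and at 11.57, 11.86, 11.58 and 11.83 in Runx3Δ RM. *Csf1r*, the receptor for the macrophage growth factor, had means of 12.78 ± 0.10 (SD, n = 3) and 12.71 ± 0.13 (SD, n = 4), and the complement gene *C1qa* of 12.51 ± 0.12 and 12.42 ± 0.17. Of the 7 sort gate genes with a row of their own, 0 were higher or lower at the thresholds, and *Ptprc*, which encodes CD45, differed by -0.18 (SE 0.08, adjusted p = 0.582). *Ly6c1* and *Ly6c2* had no row of their own. The DC factor *Zbtb46* was dim, between 5.47 and 5.87 in all 7 RM samples, against 6.88 to 7.33 in the DC samples. *Ccr7*, a receptor of migrating DC, went against the label: it was bright in RM, at 11.66, 10.13 and 10.54 in WT and at 11.45, 11.44, 11.48 and 11.25 in Runx3Δ, and was called higher in Runx3Δ RM (0.63, SE 0.28, adjusted p = 0.616), with overlapping samples. In DC it lay at 11.91 to 12.76. *Runx3* itself read 9.83, 9.48 and 9.76 in WT and 10.18, 9.87, 9.88 and 9.85 in Runx3Δ RM. The Runx3Δ samples thus lay above WT. The floxed allele loses exon 3, and where the probes of this row lie was not examined, so the row is no check of the deletion.

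Both genotypes had a library that stood apart. Runx3Δ replicate 1 had the lowest correlations with the other RM samples, 0.977 to 0.982 over all rows, where no other sample had a median below 0.984, and the lowest mean on the sort gate list, -0.31 against -0.10 to 0.03 in the other Runx3Δ samples. WT replicate 1 lay with the Runx3Δ samples on several groups of genes described below, and the counts moved most when it was left out. The medians of 47 of the 50 gene lists used below moved by over 1.5 times or changed sign when some 1 RM sample was left out, so that most list medians near 0 have no settled size. In bulk RNA, fewer cells of a kind and less RNA per cell cannot be told apart.

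The loss of Runx3 was first described by counts of genes. After adjustment 2 genes rose (0.01% of those tested) and 2 fell (0.01%). At the thresholds of the study 97 genes were higher (0.487%) and 171 lower (0.858%). The samples of 806 genes lay apart with Runx3Δ above WT (4.04%) and those of 900 with Runx3Δ below (4.51%). An unadjusted p under 0.05 was reached by 1801 genes (9.03%). Over all 19938 genes the median log2 fold change was 0.01, with 10493 genes above 0 and 9445 below. The counts given for gene lists below are to be read beside these shares. Among the 97 higher genes the samples of 62 lay apart, and among the 171 lower genes those of 116. Low signal was rare among them: 2 of the 97 and 4 of the 171 had both means under a log2 level of 5. When each RM sample was left out in turn, 36 of the 97 and 63 of the 171 met the thresholds in all 7 fits.

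The split between higher and lower genes depended on the scaling and on single libraries. With each array centred on its median, 75 genes were higher and 215 lower, so that the share of higher genes went from 36.2% to 25.9%. Without WT replicate 1, 147 genes were higher and 355 lower, and 48 genes passed the adjustment, 10 of them higher and 38 lower. Without Runx3Δ replicate 1 the split was 136 higher and 125 lower (52.1% higher), and without Runx3Δ replicate 2 it was 67 and 192 (25.9%). With the litter as a block, 76 of the 97 higher and 167 of the 171 lower genes met the thresholds. With that block 8 genes passed the adjustment, the 4 named next and *Tnf*, *Ddias*, *2900026A02Rik* and *F630028O10Rik*, all lower.

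**Figure D1:**
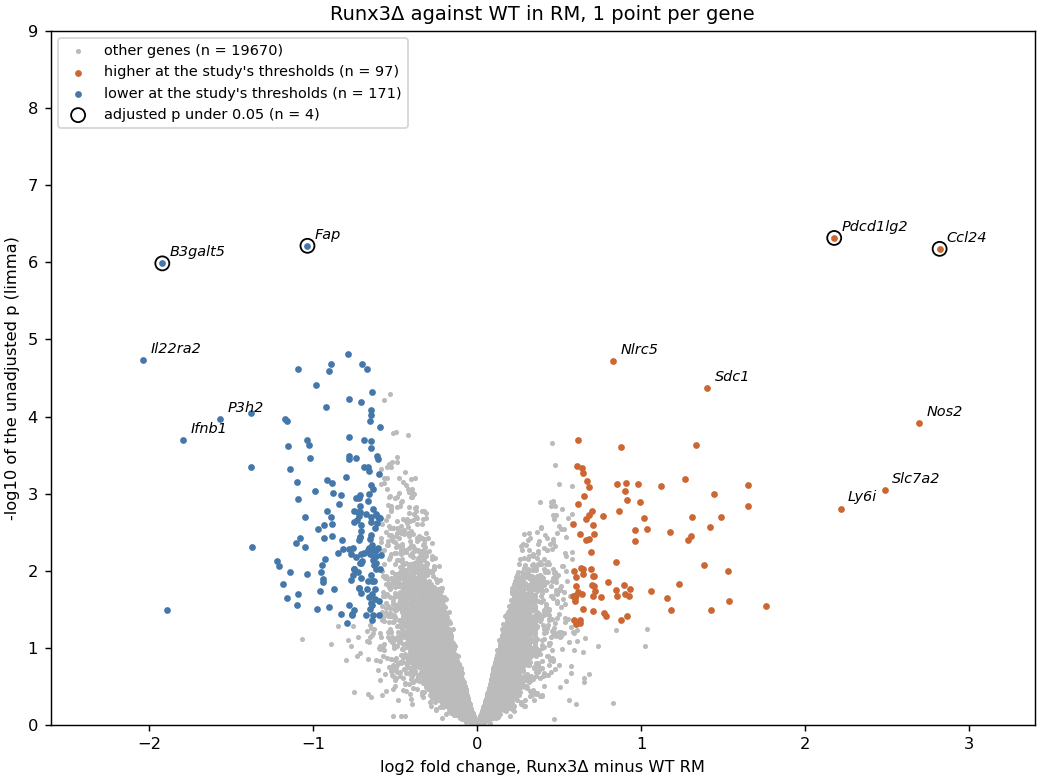
Each point is 1 of 19938 genes, with the log2 fold change of Runx3Δ over WT RM on the x axis and the -log10 of the unadjusted p of limma on the y axis. The 4 genes with an adjusted p under 0.05 are circled, and the 97 higher and 171 lower genes at the thresholds of the study are coloured.

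*Ccl24* and *Pdcd1lg2* rose, and *B3galt5* and *Fap* fell. *Ccl24* encodes eotaxin-2, a chemokine that draws eosinophils. It lay at 7.05, 6.25 and 6.96 in WT and at 9.20, 9.60, 9.56 and 9.94 in Runx3Δ RM, a 7.07-fold rise (log2 fold change 2.82, SE 0.28, adjusted p = 0.0079). *Pdcd1lg2* encodes PD-L2, a ligand of the PD-1 receptor of T cells. It lay at 7.95, 8.05 and 8.42 in WT and at 9.77, 10.50, 10.33 and 10.67 in Runx3Δ RM, a 4.53-fold rise (log2 fold change 2.18, SE 0.21, adjusted p = 0.0079). For both genes every WT sample lay below every Runx3Δ sample.

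*B3galt5* encodes a galactosyltransferase that builds type 1 chains on glycans. It went from 6.83, 6.98 and 7.52 to 4.94, 5.06, 5.37 and 5.39, and so fell by 1.92 on the log2 scale (SE 0.20, adjusted p = 0.00801). *Fap*, a membrane serine protease best known from fibroblasts, went from 5.64, 5.76 and 5.85 to 4.73, 4.57, 4.67 and 4.90, and so fell by 1.03 (SE 0.10, adjusted p = 0.0079). *Fap* was dim throughout, and 17 of 19 measured stromal genes had a log2 fold change below 0, with values given further on. The calls of all 4 genes were lost with the RM samples fitted alone and with the unmoderated test that the study's methods name, and that of *Fap* also without WT replicate 3 (adjusted p = 0.0507).

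**Figure D2:**
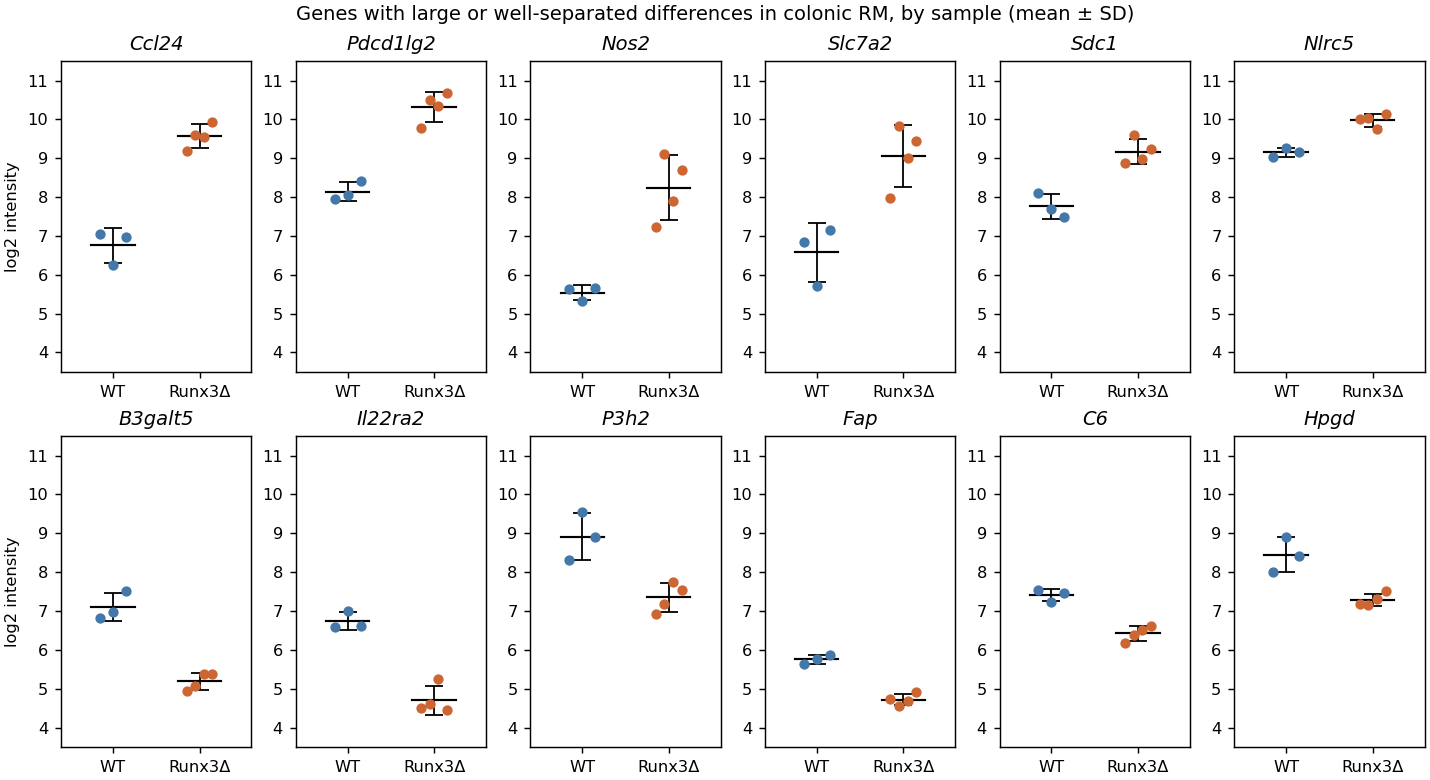
Log2 intensities of 12 genes in each RM sample, WT (blue, n = 3) and Runx3Δ (orange, n = 4), where the bars show mean and SD. In each of the 12 panels all Runx3Δ points lie on the same side of all WT points; *Ccl24*, *Pdcd1lg2*, *B3galt5* and *Fap* passed the adjustment.

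The promoters of the higher and lower genes were searched for the core motif that RUNX factors bind, TGTGGT, read on both strands (ACCACA on the printed strand). RefSeq windows of 300 bases (250 before and 50 after a start, build GRCm38.p6) were held for 15614 of the 19938 genes, as 19177 windows, of which 14.2% contained the motif. Among the windows of the higher genes (73 of 97 matched) it was in 19 of 85 (22.4%), and among those of the lower genes (142 of 171 matched) in 33 of 193 (17.1%). Of *Ccl24*, *Pdcd1lg2*, *B3galt5* and *Fap*, a window was held for *Pdcd1lg2* and *B3galt5*, and each had 1 match; for *B3galt5* it was in 1 of 3 windows. These windows are shown because they belong to genes past the adjustment, 1 risen and 1 fallen, with the motif in capitals and the sequence 5′ to 3′. Of the 26 genes past the adjustment with or without the unnamed rows, 18 had a window, 4 of these had a match (*Pdcd1lg2*, *B3galt5*, *C6* and *Fgf11*) and 14 had none. The window of *C6*, a gene described next, is shown as well. The first lies at chr19:29410669-29410968, the second at chr16:96280782-96281081 and the third at chr15:4726960-4727259, all on the plus strand.
Pdcd1lg2: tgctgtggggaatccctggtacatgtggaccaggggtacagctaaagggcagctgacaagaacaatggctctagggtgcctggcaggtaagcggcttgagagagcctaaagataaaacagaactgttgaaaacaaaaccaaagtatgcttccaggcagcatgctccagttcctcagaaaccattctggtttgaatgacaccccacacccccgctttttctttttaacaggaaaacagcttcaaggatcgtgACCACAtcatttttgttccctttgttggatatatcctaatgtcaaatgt
B3galt5: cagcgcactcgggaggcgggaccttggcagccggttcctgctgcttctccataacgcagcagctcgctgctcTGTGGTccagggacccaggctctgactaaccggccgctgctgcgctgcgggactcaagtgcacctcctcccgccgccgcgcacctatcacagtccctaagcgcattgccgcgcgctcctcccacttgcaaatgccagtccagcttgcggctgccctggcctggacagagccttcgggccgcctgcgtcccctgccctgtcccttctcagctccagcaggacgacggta
C6: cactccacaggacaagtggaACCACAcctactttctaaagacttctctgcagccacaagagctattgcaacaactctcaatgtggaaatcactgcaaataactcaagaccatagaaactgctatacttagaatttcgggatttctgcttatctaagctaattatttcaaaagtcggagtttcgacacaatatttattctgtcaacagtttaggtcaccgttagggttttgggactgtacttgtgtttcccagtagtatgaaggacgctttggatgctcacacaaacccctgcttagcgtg
A match of these letters is a description of the sequence; binding was not measured here.

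The table opens with 6617 rows that carry no gene name, and without them 22 further genes had an adjusted p under 0.05, 3 with a log2 fold change above 0 and 19 below. The fit was made anew on the rows kept, so more than the number of tests changed. The 3 were *Nlrc5* (0.83, SE 0.12), *Sdc1* (1.40, SE 0.22) and *Nos2* (2.70, SE 0.47). Other rows of *Nlrc5* differed less, by 0.36 to 0.77, and most of them did not pass. *Il22ra2*, the gene of the soluble receptor that neutralizes IL-22, had the largest difference of the 19. It lay at 6.60, 7.01 and 6.62 in WT and at 4.51, 4.60, 5.25 and 4.45 in Runx3Δ RM, a 4.11-fold difference (-2.04, SE 0.28, adjusted p = 0.0656 over all rows and 0.0263 without the unnamed rows). *Sdc1*, the heparan sulfate proteoglycan syndecan-1, lay at 8.11, 7.70 and 7.48 in WT and at 8.86, 9.58, 8.99 and 9.23 in Runx3Δ RM. *C6*, a component of the membrane attack complex, lay at 7.53, 7.22 and 7.46 in WT and at 6.18, 6.39, 6.52 and 6.61 in Runx3Δ RM (-0.98, SE 0.15). In all 3 genes the samples lay apart. *Sdc1* also marks plasma cells, and it was the only gene called of 15 B and plasma cell genes, a list on which WT replicate 1 was highest.

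The other 17 lower genes of this set had log2 fold changes from -1.57 to -0.53 and their samples lay apart too. *P3h2*, a collagen prolyl hydroxylase, lay at 8.31, 9.54 and 8.90 in WT and at 6.93, 7.18, 7.75 and 7.54 in Runx3Δ RM (-1.57, SE 0.27). *Ddias*, which protects cells from apoptosis after DNA damage, went from 7.85, 8.25 and 8.23 to 6.00, 7.07, 6.94 and 6.91 (-1.38, SE 0.23). *Rcan1*, an inhibitor of calcineurin, went from 9.54, 9.61 and 10.22 to 8.46, 8.47, 8.62 and 8.92 (-1.17, SE 0.20). Genes of DNA replication and repair were among them: *Rad51c*, a recombination factor, had a log2 fold change of -0.70 (SE 0.10) and *Cdt1*, which licenses replication origins, one of -0.57 (SE 0.09). Genes that act on actin and membranes were *Jmy* (-0.67, SE 0.10) and *Mtss1* (-0.92, SE 0.15), and genes of lipids and protein turnover were the fatty acid desaturase family gene *Fads3* (-0.91, SE 0.13) and the cathepsin *Ctsf* (-0.79, SE 0.11). *Fgf11* (-0.89, SE 0.13), *Tcp11l2* (-0.64, SE 0.10), *Nol8* (-0.65, SE 0.11) and the clone *2900026A02Rik* (-1.09, SE 0.16) were in the set, together with *Atf6*, *Dnajb4*, *Kmo* and *Hpgd*, described with their pathways.

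Chemokines and cytokines differed in both directions. Of 29 chemokine genes, 6 were higher (*Ccl24*, *Cxcl9*, *Ccl22*, *Ccl17*, *Ccl8*, *Ppbp*) and 3 lower (*Ccl12*, *Ccl4*, *Ccl3*), with a median log2 fold change of -0.15. *Cxcl9*, a ligand of CXCR3 on activated T cells, lay at 11.73, 10.41 and 11.43 in WT and at 12.19, 12.59, 12.40 and 12.63 in Runx3Δ RM (1.27, SE 0.27, adjusted p = 0.212). *Ccl22* (0.77, SE 0.19) and *Ccl17* (0.96), ligands of CCR4, lay apart as well. *Ccl8* ranged from 8.61 to 10.72 in WT and from 10.37 to 11.67 in Runx3Δ RM, so its samples overlapped. *Ccl12*, a chemokine for monocytes, went the other way, from 8.85, 9.25 and 9.58 to 8.39, 7.75, 7.72 and 8.66 (-1.10, SE 0.24, adjusted p = 0.214).

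Of 35 measured cytokine and growth factor genes 3 were higher and 7 lower, with a median of -0.05. *Il12a*, the p35 subunit of IL-12, lay at 5.55, 4.99 and 4.84 in WT and at 5.74, 6.75, 6.00 and 6.51 in Runx3Δ RM (1.12, SE 0.24, adjusted p = 0.214). *Ifng* read 4.57, 4.86 and 4.73 in WT and 5.51, 6.12, 4.92 and 5.12 in Runx3Δ RM (0.70, SE 0.24, adjusted p = 0.516), close to the low end of the scale. The third, *Inhba*, a subunit of activin, overlapped between genotypes, since WT replicate 1 read 9.56 and Runx3Δ replicate 1 9.48. *Ifnb1*, interferon-β, lay at 7.15, 6.23 and 7.74 in WT and at 4.88, 4.98, 5.30 and 5.85 in Runx3Δ RM (-1.79, SE 0.33, adjusted p = 0.148). *Il10*, which restrains inflammation in the gut, lay at 11.40, 11.30 and 11.45 in WT and at 9.71, 10.24, 10.56 and 10.66 in Runx3Δ RM (-1.09, SE 0.40, adjusted p = 0.537). *Il22ra2*, *Il33*, *Pgf*, *Tnfsf4* and *Tnf* were lower as well. *Tnfsf4*, the ligand of OX40, lay between 5.48 and 5.55 in all 4 Runx3Δ samples, near the dim end, against 7.66, 5.74 and 6.72 in WT.

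Interferon-inducible genes were described in separate lists, and no test compared the lists. Of 28 measured type I interferon-stimulated genes 27 had a log2 fold change below 0, with a median of -0.41, and 10 were lower and 0 higher, while 0 passed the adjustment over all rows (limma). *Ifit1*, an RNA-binding antiviral protein, lay at 9.73, 8.84 and 10.70 in WT and at 7.77, 8.46, 8.56 and 8.73 in Runx3Δ RM (-1.37, SE 0.39). *Ifih1*, the RNA sensor MDA5, went from 10.24, 10.67 and 11.17 to 9.83, 9.91, 9.96 and 10.09 (-0.75, SE 0.18), and *Ddx60* from 6.19, 6.42 and 6.56 to 5.70, 5.81, 5.78 and 5.84 (-0.61, SE 0.12). *Mx1*, a GTPase against influenza viruses, had a log2 fold change of -0.94 (SE 0.32) and *Oasl1* one of -0.76 (SE 0.25). As the mean difference from the WT mean, the list lay at -0.08, -0.34 and 0.42 in WT replicates 1 to 3 and at -0.74, -0.45, -0.45 and -0.38 in the Runx3Δ samples, and its median was -0.30 without WT replicate 3.

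The GTPases and antigen-processing genes that answer to interferon-γ had values above 0. All 9 GTPases with a row of their own did, with a median of 0.37, and 3 were higher: *Iigp1*, *Gbp4* and *Gbp5*. *Iigp1*, which attacks the vacuoles of intracellular pathogens, lay at 6.36, 6.57 and 6.79 in WT and at 7.34, 8.48, 7.81 and 7.99 in Runx3Δ RM (1.33, SE 0.25, adjusted p = 0.148). *Gbp4* and *Gbp5* overlapped between genotypes. The other 9 of the 18 listed GTPases had no row with 1 symbol of their own, and members of this family have close paralogs, so that values of single members are uncertain. On this list the WT samples lay at -0.34, -0.01 and 0.35 and the Runx3Δ samples at 0.00, 0.78, 0.46 and 0.58, so that WT replicate 3 was above Runx3Δ replicate 1. Its median was 0.15 without WT replicate 1 and 0.53 without WT replicate 3, and *Gbp5* was not called with the litter block. Of 16 measured genes of MHC class I presentation 14 lay above 0, with a median of 0.26, or 0.17 without WT replicate 2. Of the 21 genes listed, *H2-K1*, *H2-D1*, *H2-Q6*, *H2-Q7* and *H2-T23* had no row with 1 symbol of their own, so these class I genes are not covered. The WT samples lay at 0.12, -0.15 and 0.03 and the Runx3Δ samples at 0.10, 0.39, 0.22 and 0.40, so that the genotypes overlapped. *Nlrc5*, the transactivator of MHC class I genes, lay at 9.03, 9.26 and 9.15 in WT and at 10.02, 10.03, 9.74 and 10.13 in Runx3Δ RM. This was its brightest row, with a log2 fold change of 0.83, and its other rows had smaller ones, from 0.36 to 0.77. *Tap1*, which moves peptides into the endoplasmic reticulum, went from 9.70, 9.24 and 9.45 to 9.87, 10.33, 10.02 and 10.19 (0.64, SE 0.13), *Tap2* had a log2 fold change of 0.46 (SE 0.11) and the proteasome activator *Psme1* one of 0.31 (SE 0.09). In the row given, the samples of each of these genes lay apart. For MHC class II, the median of 16 genes was -0.07 and 0 were called, and its transactivator *Ciita* lay at 9.01 to 9.30 in WT and at 8.54 to 8.91 in Runx3Δ RM (-0.41, SE 0.14).

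**Figure D3:**
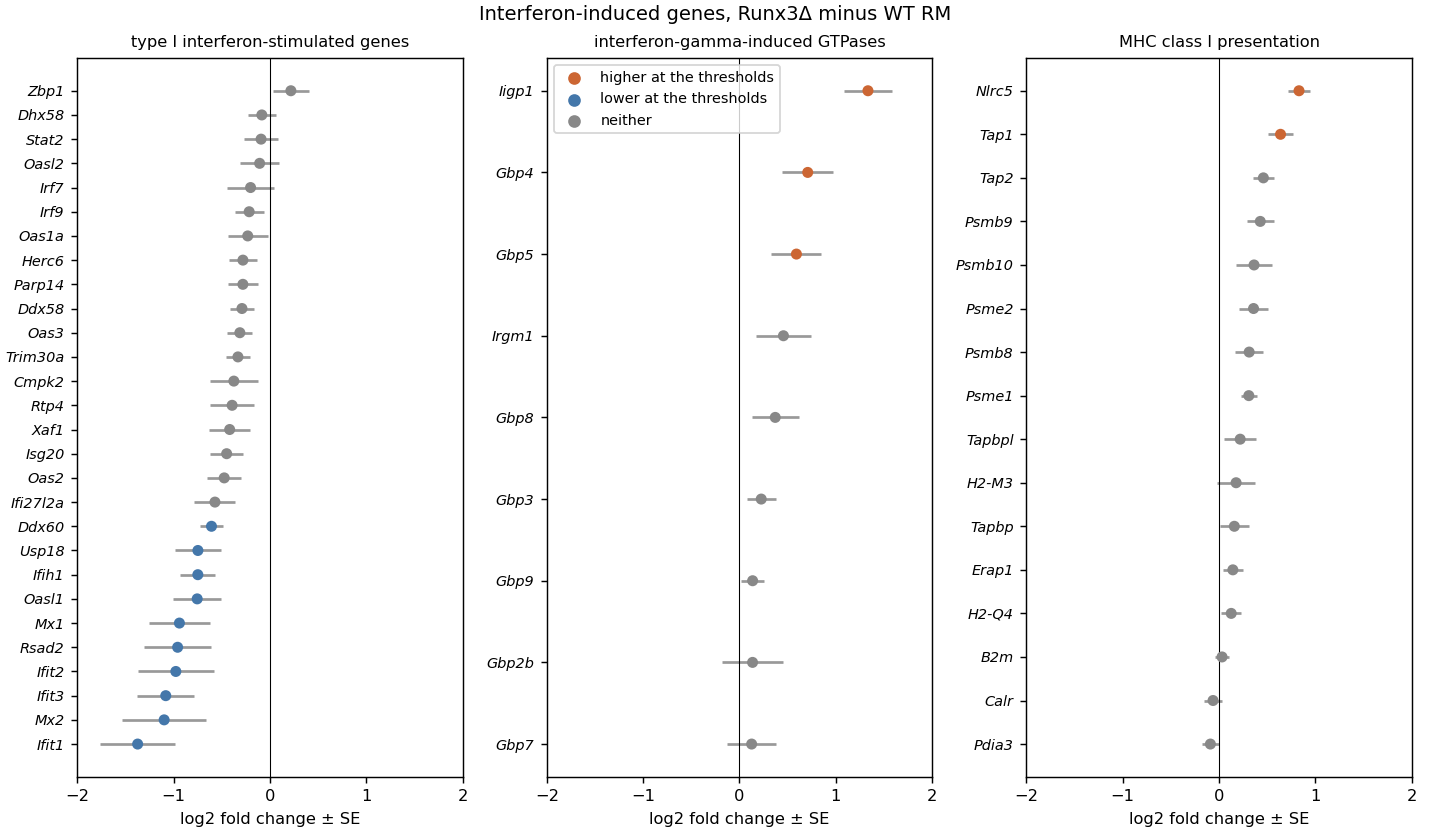
Log2 fold changes (Runx3Δ minus WT RM) with SE for the measured genes of 3 lists, sorted by value; orange and blue mark genes higher or lower at the thresholds of the study. Of the type I genes 27 of 28 lie below 0, and all 9 GTPases and 14 of 16 MHC class I genes lie above it.

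Genes of macrophage states were described as 2 lists. Of 20 measured genes of alternative activation, the program that IL-4 and IL-13 induce, 14 lay above 0 (median 0.44), and 5 were higher: *Pdcd1lg2*, *Ccl24*, *Arg1*, *Ccl22* and *Ccl17*. *Arg1*, the arginase that turns arginine into ornithine and urea, lay at 5.71, 5.01 and 5.66 in WT and at 6.66, 7.24, 6.79 and 7.78 in Runx3Δ RM (1.65, SE 0.36, adjusted p = 0.214). The median of this list was 0.24 without WT replicate 1. Since the list was chosen with earlier results of these data known and holds both genes that rose, its values largely restate those genes. Of 29 genes of mature colonic macrophages 24 lay below 0, with a median of -0.19, and 7 were lower. The WT samples lay at -0.34, 0.22 and 0.12 on this list and the Runx3Δ samples at -0.54, -0.27, -0.24 and -0.06, so that the genotypes overlapped, and the median was -0.11 without WT replicate 2 or 3. *Timd4*, a receptor for phosphatidylserine on dying cells, went from 8.44, 8.99 and 8.67 to 7.66, 8.07, 8.35 and 7.88 (-0.71, SE 0.17). *Dtx4*, a ubiquitin ligase of the Notch pathway, went from 9.47, 9.68 and 9.84 to 8.81, 8.59, 8.89 and 9.23 (-0.78, SE 0.15), and *Gpr34*, a receptor for lysophosphatidylserine, from 5.49, 6.28 and 5.84 to 4.89, 5.13, 5.17 and 5.46 (-0.71, SE 0.19). *Cx3cr1*, the fractalkine receptor of RM, lay at 10.13, 10.61 and 10.58 in WT and at 9.88, 9.61, 9.57 and 10.33 in Runx3Δ RM (-0.59, SE 0.19), with 1 Runx3Δ sample inside the WT range. Against these, *Mertk* and *Fcgr1*, which encodes CD64, had log2 fold changes of 0.24 (SE 0.33) and -0.11 (SE 0.25).

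Genes of receptors followed no common direction. Among scavenger receptors, *Marco* went from 5.27, 5.25 and 5.44 to 6.50, 6.65, 5.73 and 6.00 (0.90, SE 0.20) and *Scarf1* from 6.70, 6.35 and 6.60 to 7.06, 7.96, 7.26 and 7.55 (0.91, SE 0.20), while *Fcrls* went from 10.55, 10.97 and 11.08 to 9.51, 9.05, 10.08 and 10.10 (-1.18, SE 0.41). The median of the 23 scavenger genes was -0.08. Among lectin-like and paired receptors, *Clec12a*, an inhibitory receptor for uric acid crystals, had a log2 fold change of 0.91 (SE 0.21), *Tarm1*, which costimulates myeloid cells, of 1.65 (SE 0.39), and *Clec4b1* of -0.89 (SE 0.22). *Adgre4*, a relative of F4/80, went from 9.75, 9.09 and 9.14 to 9.80, 10.65, 9.88 and 9.79 (0.70, SE 0.23). *Ly6i*, a surface protein of inflammatory monocytes, lay at 8.56, 5.74 and 6.88 in WT and at 8.91, 9.94, 9.07 and 9.19 in Runx3Δ RM (2.22, SE 0.53, adjusted p = 0.272). Of 20 Toll-like receptors and adaptors 16 lay below 0 and 0 were called. Their median was -0.09, but 0.0089 without Runx3Δ replicate 1, which was the lowest sample on this list at -0.48. The endosomal *Tlr9*, which binds bacterial DNA, went from 10.59, 10.72 and 10.85 to 10.21, 10.11, 10.28 and 10.34 (-0.49, SE 0.09), with samples that lay apart.

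Genes of arginine metabolism held some of the largest differences. *Nos2*, the inducible nitric oxide synthase, lay at 5.64, 5.32 and 5.67 in WT and at 7.23, 9.12, 7.90 and 8.71 in Runx3Δ RM, a 6.48-fold difference (2.70, SE 0.47, adjusted p = 0.125). *Slc7a2*, which imports its substrate arginine, lay at 6.85, 5.72 and 7.15 in WT and at 7.97, 9.84, 9.01 and 9.44 in Runx3Δ RM, a 5.61-fold difference (2.49, SE 0.55, adjusted p = 0.226). With *Arg1* and *Arg2*, 4 of 15 measured genes of arginine and nitric oxide metabolism were higher and 0 lower, around a median of 0.03. *Gch1*, which makes the cofactor of nitric oxide synthases, had a log2 fold change of -0.38 (SE 0.12).

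Of 25 measured glycolytic genes and HIF-1 targets 19 lay above 0, with a median of 0.48, and 7 were higher and 0 lower. With the litter as a block 4 of these 7, *Hif1a*, *Tpi1*, *Slc2a1* and *Slc16a3*, were no longer called. *Hif1a* itself went from 10.68, 10.47 and 10.43 to 11.02, 11.28, 11.07 and 11.22 (0.62, SE 0.11, adjusted p = 0.148). *Pfkp*, which commits sugar to glycolysis, went from 9.15, 9.33 and 9.10 to 9.41, 10.10, 9.87 and 10.01 (0.65, SE 0.15), *Pdk1*, which keeps pyruvate out of the mitochondria, from 5.76, 6.09 and 6.30 to 6.49, 6.68, 6.69 and 6.63 (0.58, SE 0.14), and the glucose transporter *Slc2a1* from 10.92, 10.34 and 10.86 to 10.93, 11.68, 11.08 and 11.70 (0.64, SE 0.24). For these genes the samples lay apart, narrowly so for *Slc2a1*. On the whole list the WT samples lay at 0.17, -0.15 and -0.02 and the Runx3Δ samples at 0.07, 0.49, 0.24 and 0.51. WT replicate 1 was thus above Runx3Δ replicate 1, and the genotypes overlapped. The median of the list stayed between 0.38 and 0.58 in the 26 alternatives. Of 23 subunits of the respiratory chain 21 lay above 0, with a smaller median of 0.15 and 0 called; it was 0.26 without WT replicate 1 and 0.03 without WT replicate 2. WT replicate 1 lay at 0.30 on that list, above all 4 Runx3Δ samples, which lay at 0.11 to 0.25. *Acod1*, the itaconate enzyme, was higher (0.72, SE 0.26), but not with the litter block, and the same was true of *Arg2* and *Lrp1*.

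A few enzymes of lipid mediators and of tryptophan were lower, within lists that gave few calls. *Hpgd*, which breaks down prostaglandins, lay at 8.00, 8.90 and 8.42 in WT and at 7.17, 7.15, 7.32 and 7.50 in Runx3Δ RM (-1.16, SE 0.20, adjusted p = 0.121), and *Hpgds*, which makes prostaglandin D2, went from 11.06, 11.77 and 11.93 to 10.45, 10.70, 10.92 and 10.91 (-0.84, SE 0.20). These were the only 2 called of 22 measured genes of the pathway, whose median was -0.07. *Kmo*, of the kynurenine pathway, went from 8.78, 8.57 and 8.47 to 7.74, 7.76, 8.08 and 7.72 (-0.78, SE 0.12, adjusted p = 0.0949) and was the only gene called of 12, of which 9 lay above 0 (median 0.05). *Ch25h*, which makes 25-hydroxycholesterol, went from 6.93, 6.62 and 7.03 to 5.56, 5.70, 5.74 and 6.30 (-1.03, SE 0.19). Also lower was *Mylip*, the ligase that degrades the LDL receptor (-0.66, SE 0.15), while *Nr1h3*, the oxysterol receptor LXRα, and *Lrp1*, a receptor for lipoproteins, had log2 fold changes of 0.85 (SE 0.30) and 0.60 (SE 0.20). *Vdr*, the vitamin D receptor, went from 9.04, 9.22 and 9.55 to 9.70, 10.14, 10.30 and 9.81 (0.72, SE 0.19).

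Metal and redox genes gave a few separate calls. *Slc40a1*, the iron exporter ferroportin, went from 6.29, 6.80 and 6.65 to 4.85, 5.99, 5.60 and 6.03 (-0.97, SE 0.25), and *Slc39a8*, an importer of zinc and manganese, from 7.31, 6.77 and 7.46 to 5.89, 6.19, 6.56 and 6.53 (-0.89, SE 0.19). The glutathione peroxidase *Gpx3* went from 8.14, 8.31 and 7.99 to 6.82, 7.41, 7.60 and 7.23 (-0.88, SE 0.24). The cystine importer *Slc7a11* went from 10.36, 9.74 and 10.22 to 10.48, 10.98, 10.67 and 10.97 (0.67, SE 0.17). The medians of the iron, zinc and antioxidant lists were -0.09, -0.06 and 0.00.

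Coagulation and protease genes gave calls in both directions. *F10* and *F7*, which encode clotting factors X and VII, had log2 fold changes of 1.31 (SE 0.33) and 1.06 (SE 0.38). *F10* lay at 9.32, 8.87 and 8.47 in WT and at 9.61, 10.49, 10.18 and 10.51 in Runx3Δ RM. *F7* overlapped, at 6.63, 7.58 and 7.16 against 7.37, 8.75, 8.02 and 8.60. *Procr*, the receptor for protein C, went from 9.68, 8.46 and 9.97 to 10.28, 11.28, 10.72 and 11.15 (1.49, SE 0.37), and *Plau*, the urokinase that starts fibrinolysis, from 10.05, 11.03 and 10.74 to 9.63, 9.51, 9.40 and 10.14 (-0.94, SE 0.26). Over the 17 measured genes of this list 12 lay below 0 and the median was -0.18, or -0.025 without WT replicate 1. *Cfb*, a protease of the alternative complement pathway, went from 10.40, 8.62 and 9.57 to 10.54, 11.28, 10.74 and 11.26 (1.42, SE 0.37). The granzyme inhibitor *Serpinb9* (1.03, SE 0.27) and *Serpinb6b* (1.18, SE 0.31) lay apart, as did *Gzma*, granzyme A, at 4.53, 4.19 and 3.52 in WT and 5.35, 6.08, 4.72 and 5.38 in Runx3Δ RM (1.30, SE 0.35).

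Several enzymes that build or modify sugar chains were lower besides *B3galt5*: *St3gal6* (-0.74), *Gcnt1* (-0.71), *Man1c1* (-0.65), *Ust* (-0.61), *Extl2* (-0.60), *Extl3* (-0.67) and *Eogt* (-0.64). This group was picked after the values were seen, and *Chst11*, a chondroitin sulfotransferase, was higher (0.65), so no count of it was made against other genes. The samples lay apart for these genes except *Gcnt1* and *Chst11*.

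On the clock, stress and cell cycle lists WT replicate 1 stood away from the other WT samples. Of 17 circadian clock genes 14 lay below 0, with a median of -0.22, and 4 were lower. The median was -0.34 without WT replicate 1 and -0.13 without WT replicate 2. *Bhlhe41*, a repressor of the clock, was lower in every Runx3Δ sample, at 6.86, 7.14 and 7.33 in WT and 5.96, 6.41, 5.89 and 6.10 in Runx3Δ RM (-1.02, SE 0.20, adjusted p = 0.181). *Ciart*, another clock repressor, read 8.97 and 8.52 in WT replicates 2 and 3 and at most 7.37 in Runx3Δ RM, while WT replicate 1, at 7.07, lay inside the Runx3Δ range. On the whole list WT replicate 1 lay at -0.30, among the Runx3Δ samples at -0.38 to -0.26. Hours of collection were not given in the sources used here, so time of day and genotype cannot be told apart.

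Immediate-early and dissociation stress genes had a median of -0.22 over 32 genes (-0.45 without WT replicate 1 and -0.14 without WT replicate 2), and WT replicate 1 lay at -0.39, below all Runx3Δ samples (-0.35 to -0.07). *Fos* read 11.10 in WT replicate 1, 12.14 and 11.69 in the others and 10.84 to 11.31 in Runx3Δ RM. Of 22 genes of the unfolded protein response 18 lay below 0 (median -0.21, or -0.095 without WT replicate 1), and for *Atf6*, a sensor of misfolded protein in the endoplasmic reticulum, the samples lay apart, at 10.43, 10.47 and 10.40 against 9.76, 9.92, 9.90 and 10.01 (-0.53, SE 0.08, adjusted p = 0.0909). The chaperone gene *Dnajb4* went from 9.04, 9.25 and 8.99 to 8.33, 8.51, 8.18 and 8.53 (-0.71, SE 0.11). Of 29 cell cycle genes 28 lay below 0 with a median of -0.27, and here WT replicate 1 lay at 0.51 and the other WT samples at -0.23 and -0.28, within the Runx3Δ range of -0.44 to -0.22. Without WT replicate 1 the median was -0.01.

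Targets of TGF-β and Notch, pathways that act in the maturation of RM, gave few calls. *Pmepa1*, a TGF-β target, went from 10.45, 10.70 and 11.15 to 10.29, 9.77, 10.29 and 10.25 (-0.62, SE 0.18), *Cited2*, a coregulator of transcription, from 10.30, 10.77 and 10.91 to 9.81, 10.03, 9.96 and 10.26 (-0.65, SE 0.17), and the inhibitor *Smad7* from 7.60, 7.72 and 7.57 to 7.43, 7.19, 7.19 and 7.35 (-0.34, SE 0.10). *Smad7* was not called. In the other direction, *Inhba* was called higher (1.38, SE 0.43) with overlapping samples, and 9 of the 25 TGF-β genes lay above 0. The medians were -0.04 over 25 genes of TGF-β and -0.10 over 22 of Notch. *Hes1*, a Notch target, read 8.12, 9.70 and 9.25 in WT and 7.88 to 8.30 in Runx3Δ RM (-0.87, SE 0.31), with WT replicate 1 inside the Runx3Δ range.

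**Figure D4:**
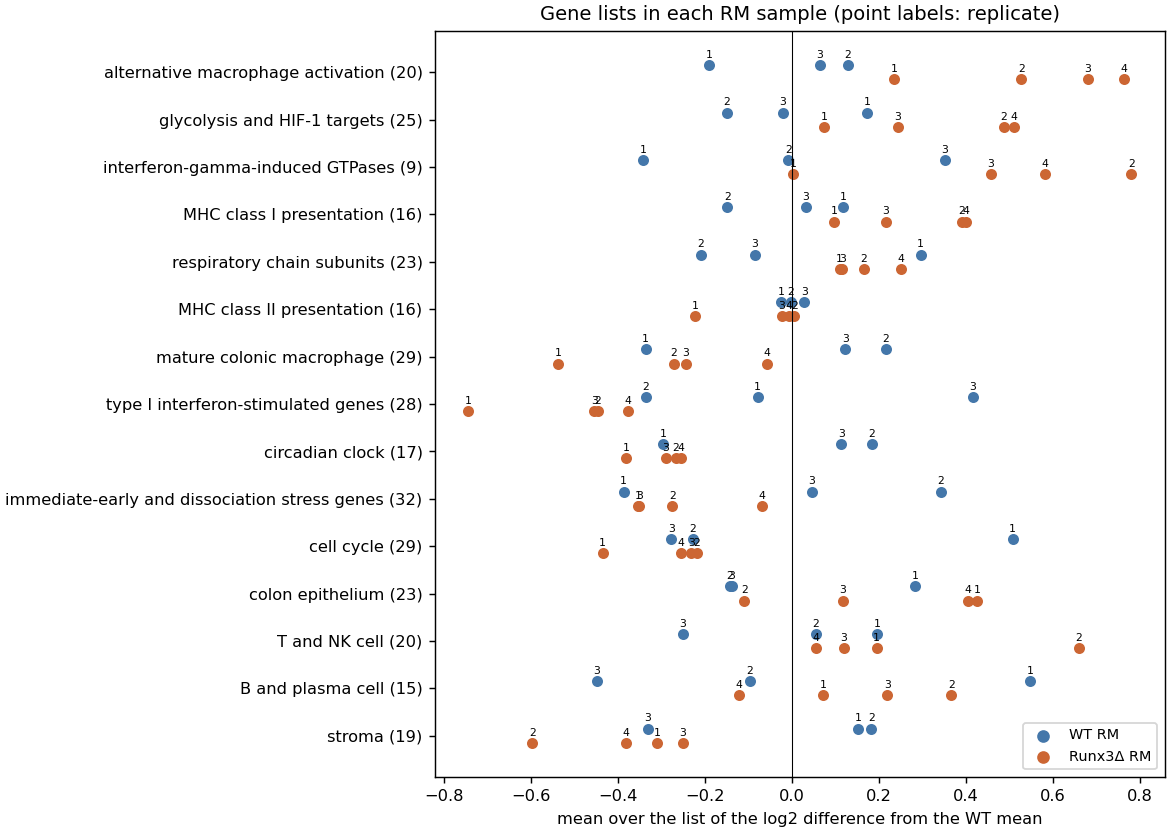
Mean over the genes of a list of the log2 difference from the WT mean, on the x axis, for each WT (blue) and Runx3Δ (orange) RM sample; numbers at the points give the replicate and those in brackets the genes measured. Genotypes do not overlap on alternative activation and type I interferon genes, while WT replicate 1 lies among or below the Runx3Δ samples on the clock, stress and mature macrophage lists and stands alone on the cell cycle list. The alternative activation list holds *Ccl24* and *Pdcd1lg2*, the 2 genes that rose, and its separation without the genes called higher was not tested.

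Markers of other cells also gave calls. Of 14 monocyte genes 7 lay above 0 (median 0.04), and *Plac8* and *Hp* were higher with overlapping samples. *Plac8* read 9.48, 8.41 and 8.19 in WT and 9.93, 9.40, 9.43 and 9.20 in Runx3Δ RM, with WT replicate 1 inside the Runx3Δ range. Of 18 conventional DC genes 11 lay above 0 (median 0.15), and 2 were higher, *Ccl22* and *Ccr7*, and 2 lower, *Kmo* and *Dpp4*. Of 24 granulocyte and mast cell genes 17 lay above 0 (median 0.17). The samples of 7 lay apart with Runx3Δ above, as did those of 4.04% of all genes. This list was dim, and 9 of the 24 had a mean log2 level of at least 5 over all arrays. Its levels were 5.04 to 5.25 in WT and 5.24 to 5.45 in Runx3Δ RM. *Mmp9* and *Mcpt1* were higher and *Ccr3*, the eotaxin receptor, lower. *Mmp9*, a gelatinase, read 7.85, 9.84 and 9.02 in WT and 9.93, 10.14, 10.27 and 9.89 in Runx3Δ RM. The part of these cells in the values of *Ly6i*, *Ccl17*, *Ccl22* and the mature macrophage genes was not tested.

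Further lists had low levels as well. Of 23 colon epithelial genes 18 lay above 0 (median 0.17), with list levels of 5.39 to 5.81 in WT and 5.42 to 5.95 in Runx3Δ RM, and 3 were higher: *Car2*, *Gpx2* and *Dmbt1*. *Dmbt1*, a mucosal defence protein, read 6.35, 5.95 and 5.31 in WT and 7.50, 6.38, 6.99 and 7.77 in Runx3Δ RM. The chloride channel regulator *Clca3b* went from 5.36, 5.18 and 4.43 to 6.15, 6.32, 6.08 and 7.19 (1.44, SE 0.33), and the mast cell protease *Mcpt1* from 4.47, 3.93 and 3.98 to 4.81, 5.08, 4.50 and 6.83 (1.18, SE 0.48), with most of its difference in Runx3Δ replicate 4. Of 20 T and NK cell genes 17 lay above 0 (median 0.19), with Runx3Δ replicate 2 highest, at 0.66. *Cd3d* read 4.38 to 4.74 in WT and 4.69 to 5.09 in Runx3Δ RM, near the low end, and *Gzma* and *Ifng* were highest in the same replicate 2. The part of T and NK cells in the interferon-γ values was not tested.

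Of 19 stromal genes 17 lay below 0, with a median of -0.24 (-0.12 without WT replicate 1 and -0.45 without WT replicate 3), and 4 were lower: *Fap*, *Col14a1*, *Ogn* and *Postn*. *Col14a1*, a fibril-associated collagen, went from 7.81, 7.68 and 7.80 to 6.99, 6.77, 7.04 and 7.12 (-0.78, SE 0.15, adjusted p = 0.181), and *Ogn* from 6.12, 5.71 and 4.81 to 4.23, 4.23, 4.97 and 4.56. The list level ranged from 6.63 to 7.15 in WT and from 6.37 to 6.71 in Runx3Δ RM. The part of stromal RNA in the fall of *Fap* was not tested. B and plasma cell genes gave a median of 0.09, and WT replicate 1 had the highest level of them. An immunoglobulin segment, *Igkv5-43*, read 9.24, 7.59 and 8.06 in WT and 5.71 to 6.90 in Runx3Δ RM.

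The effect in RM was set against that in CD11b+ DC, with a test of the difference. No gene passed for the interaction in limma (0 of 19938 after adjustment, 724 or 3.63% at an unadjusted p under 0.05), with the smallest adjusted p among the named genes at 0.830. Of the 97 genes higher in RM, 83 had a log2 fold change above 0 in DC (median 0.50), 27 were higher there at the same thresholds and 1 was lower. Of the 171 lower in RM, 24 lay above 0 in DC (median -0.29), 36 were lower and 0 higher. In DC itself 109 genes were higher (0.547%) and 240 lower (1.2%), and the median log2 fold change over all genes was 0.01. *Gpnmb*, a lysosomal glycoprotein, had log2 fold changes of 0.86 in RM and 0.83 in DC, and *Nlrc5* of 0.83 and 0.69. For *Il22ra2* the values were -2.04 and 0.44 (difference -2.48, SE 0.44), for *B3galt5* -1.92 and -0.08 (difference -1.84, SE 0.31), and for *Rad51c* -0.70 and 0.21 (difference -0.91, SE 0.15), each at an adjusted p of 0.830. *F7* and *Lrp1* had opposite signs, 1.06 and -0.76 for *F7* and 0.60 and -0.50 for *Lrp1*, with differences that did not pass. The 5 DC samples were sorted from some of the same litters as the RM.

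**Figure D5:**
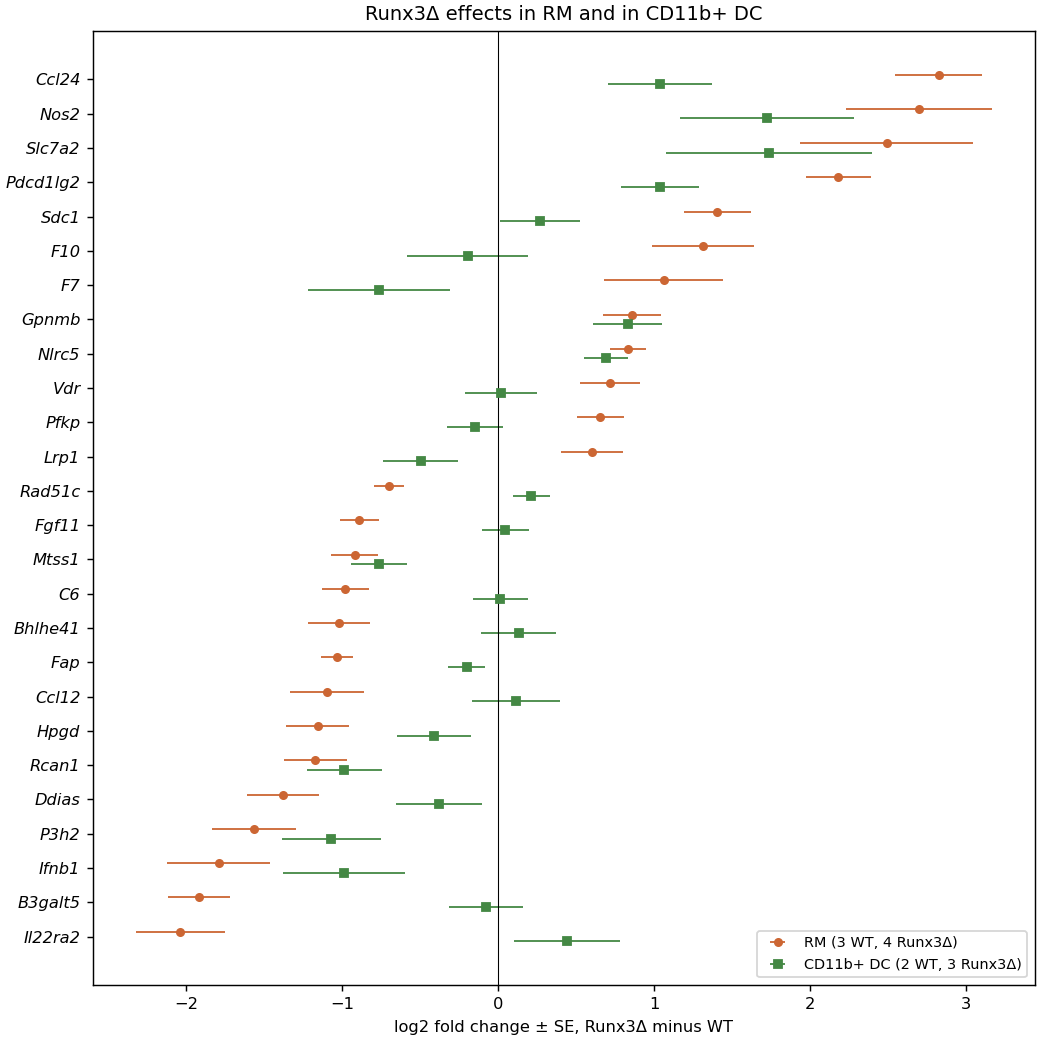
Log2 fold changes of Runx3Δ over WT with SE for 26 genes, in RM (orange circles) and in CD11b+ DC (green squares). *Nlrc5*, *Gpnmb*, *Mtss1* and *Rcan1* have similar values in both cells; *Il22ra2*, *F7*, *Lrp1* and *Rad51c* are among those that lie on opposite sides of 0, and no difference between the cells passed the adjustment.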

How the data were processed

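The authors extracted RNA from sorted cells, hybridised it to Affymetrix arrays and made log2 intensities in Partek with RMA and a GC correction; these deposited log2 values were used unchanged. The methods name an exon array and the platform a gene-level array, whose annotation was used; the labels name the build mm9. Of 35556 rows, 12146 have no symbol, 1621 several and 21789 one (21698 in the RefSeq table). The number of arrays limits the precision.

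R 4.3.3 with limma 3.58.1 (lmFit and eBayes) served to fit all 12 samples as 4 groups, statmod 1.5.0 to estimate the litter correlation, and Python 3.11.15 with matplotlib 3.10.9 to draw the plots. The fit was tested on simulated data. The interaction used the same fit. The members and the 50 gene lists (984 genes, 71 without a row) were chosen with earlier results of these data known; lists are described by counts and medians, without a test. Named genes were Runx3, the sort gate genes, genes past the adjustment with or without the leading unnamed rows, the 12 largest differences each way among genes at the thresholds whose samples lie apart, the 10 largest outside the study's tables, and in each list the members with the smallest p, at most 4. Further genes at the thresholds were named after their values were seen to complete a count.

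The labels give litter numbers, so same-numbered samples share a litter, and the litter served as a replicate block in an alternative. After removal of group means, the 3 pairs of WT and Runx3Δ RM of 1 litter had a median correlation of 0.0342 (-0.0412 to 0.207), all 13 such pairs 0.0958, and 40 pairs of different litters -0.0347. The other alternatives were the litter as a random block, RM alone, the methods' ANOVA on 4 groups and on RM, array weights, a robust prior with a trend on intensity, removal of rows under a log2 level of 5 in every group, quantile normalization, median centring, removal of the leading unnamed rows, rows with 1 symbol, each gene's brightest row alone or the mean of its rows, and each sample left out.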

Additional observations from a re-analysis of the deposited data

Results flagged for a closer look

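Of 138 genes named above and tested, 11 had 1 of the 4 Runx3Δ samples flagged by Dixon's criterion, which chance meets in about 1 in 20 groups. It sets the gap to the nearest sample against the range of the 4, so small gaps can meet it, as for *Tnfsf4* and *Chst11*. Runx3Δ replicate 1 was the lowest sample for *Chst11* (7.91, others 8.03 to 8.06), *Ddias* (6.00, others 6.91 to 7.07), *Eogt* (7.54, others 8.37 to 8.50), *Fcgr1* (9.70, others 10.37 to 10.49), *Gch1* (7.49, others 7.82 to 7.89) and *Man1c1* (8.78, others 9.28 to 9.34), and the highest for *Runx3* (10.18, others 9.85 to 9.88). This is the sample with the lowest correlations with the other RM samples.

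Runx3Δ replicate 2 was highest for *Adgre4* (10.65, others 9.79 to 9.88) and lowest for *Pmepa1* (9.77, others 10.25 to 10.29). Runx3Δ replicate 3 was highest for *Kmo* (8.08, others 7.72 to 7.76), and Runx3Δ replicate 4 for *Tnfsf4* (5.55, others 5.48 to 5.49). The groups of 3 WT samples are too small for this criterion.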

How the results depend on the processing

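The count of 4 genes past the adjustment depended most on the choices. It was 0 with the RM samples alone and with the methods' ANOVA on 4 groups or on RM alone, 8 with the litter as a replicate block, 12 with array weights, 11 without dim rows and 7 with median centring. It was 26 without the leading unnamed rows, 47 with rows of 1 symbol or 1 row per gene and 43 with the mean of a gene's rows. In these the fit was made anew on fewer rows. Both the number of tests and limma's estimate of the spread, which draws on all rows, thus changed. Leaving out 1 sample gave 4 to 48 genes, the highest without WT replicate 1. The 97 higher genes were 59 by the ANOVA on RM alone and 67 to 147 with 1 sample left out, and the 171 lower genes 125 to 355, both highest without WT replicate 1. The causes of the changes in these counts were not tested. No gene passed for the interaction under any alternative. With 1 RM sample left out, the log2 fold change of *Fcgr1* ranged from -0.20 to 0.065 around -0.11 and was above 0 without WT replicate 3 (0.042) or Runx3Δ replicate 1. That of *Mertk* ranged from -0.0063, without WT replicate 1, to 0.49 around 0.24, and neither gene was called. With the replicate block, 8 of the 54 named genes called higher at the thresholds were no longer called (*Acod1*, *Arg2*, *Gbp5*, *Hif1a*, *Lrp1*, *Slc16a3*, *Slc2a1* and *Tpi1*), and 0 of the 66 called lower. With 1 RM sample left out, the medians of 47 of 50 lists moved by over 1.5 times or changed sign, 11 of them changing sign; the exceptions were the glycolysis, type I interferon and granulocyte lists.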
